A study of Homo sapiens with 2 samples.

Results

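The genes of major histocompatibility complex (MHC) class I antigen presentation were read from 2 one-colour Agilent arrays of SBC-3 cells, an adherent small-cell lung cancer (SCLC) cell line. One array held RNA from cells transfected with #1 siHOTAIR, an siRNA against the long noncoding RNA HOTAIR, and the other RNA from cells transfected with siGFP, the control, whose target, green fluorescent protein, human cells lack. Both groups were the same cell line and both received an siRNA, so untransfected cells did not enter the comparison, and only 1 of the 3 siHOTAIR sequences used in the study was put on an array. The study asked which transcripts differ when HOTAIR is depleted. There was 1 array per condition. No P-value was computed, and the spread between cultures is unknown. The 9 genes described here are HLA-B, HLA-C, HLA-E, HLA-F, B2M, TAP1, TAP2, TAPBP and NLRC5, chosen by matching the RefSeq accession of each probe to the gene's symbol, out of 19061 genes named in this way. They were read by 15 probes and 32 spots, none of which was marked as an outlier or saturated.

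Class I molecules show fragments of the cell's own proteins to cytotoxic T cells. A heavy chain (HLA-B, HLA-C, HLA-E or HLA-F here) pairs with the invariant light chain beta-2 microglobulin, encoded by B2M. Peptides cut by the proteasome are pumped into the endoplasmic reticulum by the transporter made of TAP1 and TAP2, and tapasin, the product of TAPBP, holds the empty heavy chain next to the transporter until it is loaded. NLRC5 is the transactivator of the class I genes and acts on their promoters with the RFX, CREB and NF-Y factors. SCLC is known for low class I expression. The polycomb enzyme EZH2, a partner of HOTAIR, is known to hold class I genes silent in this tumour.

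Of the 9 genes, TAP2 was the only one that differed at least 2-fold by its brightest probe, and it was 2.58-fold higher in #1 siHOTAIR-transfected cells. HLA-B and HLA-C read 22.4% and 22.9% lower, and HLA-F read 21.7% higher. B2M, HLA-E, TAPBP, NLRC5 and TAP1 lay between these, at log2 ratios from -0.19 to -0.01. Every ratio is #1 siHOTAIR over siGFP, on the log2 scale, after both arrays were brought to a common 75th percentile. All 9 genes had a probe well above background (the scanner software's own call) on both arrays. Among all 13014 genes compared in the same way, 2.74% were at least 2-fold higher and 3.41% at least 2-fold lower, against 1 and 0 of the 9 here. Among the 12026 of these genes well above background on both arrays, as the 9 were, the shares were 1.4% and 1.48%. Among all 24117 probes compared they were 3.3% and 4.1%, against 1 and 0 of the 12 probes of the 9 genes that could be compared. The median log2 ratio of the 9 genes was -0.08, and that of all genes compared was 0.02. Scaling to the spike-in RNA instead moved the median of all genes to 0.19 and that of the 9 genes to 0.09. The direction of B2M, HLA-E, TAPBP and NLRC5 turned with it, so those ratios have no settled sign.

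The regulatory sequence in front of 4 of these genes is printed because they gave the largest ratios in either direction. Each line runs from 250 bases before to 50 bases after the start of the gene, 5′ to 3′ along the gene's own strand, as given by RefSeq for the reference genome (GRCh38.p14), and not as read in SBC-3 cells. Capitals mark matches on either strand to motifs of factors known to act on class I genes: the interferon-stimulated response element (GAAA, any 2 bases and GAAA again), the NF-kappaB motif GGGNNTTCC, the CRE core motif TGACG, the CCAAT box and the gamma-activated site TTCNNNGAA, where N is any base.
TAP2 (chr6:32838690-32838989, minus strand): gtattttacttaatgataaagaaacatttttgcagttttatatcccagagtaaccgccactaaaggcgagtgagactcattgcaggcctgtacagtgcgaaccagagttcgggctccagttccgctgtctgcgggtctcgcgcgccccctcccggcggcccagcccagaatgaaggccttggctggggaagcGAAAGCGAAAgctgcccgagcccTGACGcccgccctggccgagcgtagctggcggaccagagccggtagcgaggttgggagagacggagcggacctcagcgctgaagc
HLA-F (chr6:29723184-29723483, plus strand): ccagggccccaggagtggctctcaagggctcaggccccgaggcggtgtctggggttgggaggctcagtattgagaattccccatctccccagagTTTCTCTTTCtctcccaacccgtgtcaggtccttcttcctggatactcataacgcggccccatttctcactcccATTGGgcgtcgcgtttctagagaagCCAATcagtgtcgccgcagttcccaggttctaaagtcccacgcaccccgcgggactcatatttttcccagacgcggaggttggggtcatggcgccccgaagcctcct
HLA-B (chr6:31357130-31357429, minus strand): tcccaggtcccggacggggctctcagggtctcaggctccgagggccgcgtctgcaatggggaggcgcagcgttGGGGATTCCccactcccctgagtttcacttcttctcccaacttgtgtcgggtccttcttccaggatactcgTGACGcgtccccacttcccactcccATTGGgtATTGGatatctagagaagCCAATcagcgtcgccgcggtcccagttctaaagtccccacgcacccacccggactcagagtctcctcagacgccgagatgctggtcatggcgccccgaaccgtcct
HLA-C (chr6:31272043-31272342, minus strand): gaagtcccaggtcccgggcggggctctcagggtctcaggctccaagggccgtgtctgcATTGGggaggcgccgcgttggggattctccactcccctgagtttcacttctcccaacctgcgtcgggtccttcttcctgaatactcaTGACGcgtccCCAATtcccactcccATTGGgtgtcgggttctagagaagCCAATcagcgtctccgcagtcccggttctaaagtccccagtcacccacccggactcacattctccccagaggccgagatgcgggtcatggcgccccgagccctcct
Of the 9 genes, 7 had such a window, and HLA-E and NLRC5 had none in the table used. The windows of HLA-B and HLA-C were 88.5% identical after global alignment, those of HLA-B and HLA-F 79.7%, and those of TAP2 and HLA-B 49.2%. TAP2 held 1 match to the interferon-stimulated response element, 58 to 49 bases before the start, and 1 CRE core motif. HLA-F held 1 match to the same element, 156 to 147 bases before its start, whereas HLA-B and HLA-C held 0 exact matches to it. HLA-B held 1 NF-kappaB match and HLA-C 0. CRE core motifs numbered 1 in HLA-B, 1 in HLA-C and 0 in HLA-F, and CCAAT boxes 3, 4 and 2. Of 35116 windows of the same length over all genes, 3.57% held the interferon-stimulated response element, 6.58% the NF-kappaB motif, 24.6% the CRE core motif, 34.6% the CCAAT box and 7.66% the gamma-activated site. B2M, TAP1 and TAPBP, whose ratios were smaller by their brightest probes, each held 2 overlapping matches to the interferon-stimulated response element. For TAP1 these lay in the window chr6:32853655-32853954, and its other window held 0. The ratios of B2M and the brightest TAPBP probe have no settled sign, and that of TAP1 came to -0.02 with spike-in scaling. Whether the element goes with the direction of a ratio was not tested. A match of letters does not show that a factor binds there. Only exact matches were counted, so 0 matches do not show that a window lacks the element. HLA-B and HLA-C both hold tttcacttct, which fits the other strand of the interferon-stimulated response element only in part.

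HLA-B, a classical heavy chain that presents peptides to CD8 T cells, had 2 probes with 2 spots each. The brighter probe read 1276 and 1357 with #1 siHOTAIR against 1629 and 1657 with siGFP (processed signal, in the same order below). The dimmer probe had 676 and 753 against 824 and 972. On both probes every #1 siHOTAIR spot lay below every siGFP spot. The log2 ratios were -0.37 and -0.37, with an SD for measurement error of 0.06 and 0.07, and the probes differed from each other by 0.01 with an SD of 0.10. This measurement SD comes from probes with 10 spots at the same signal, so it holds the error of reading a spot and leaves out any difference between cultures.

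HLA-C, the classical heavy chain that also serves as a ligand of killer-cell receptors, was read from 1 spot, of 6699.7 against 8416. Its log2 ratio was -0.38 with a measurement SD of 0.08. The scanner software's own error for this ratio was larger, at 0.20. It was not particular to HLA-C, being 0.20 to 0.21 for each spot of HLA-B, HLA-E, B2M and TAP1. Of all genes compared, 15.7% read lower by at least this much, and among the 1646 genes with a like mean signal (within 1 log2 unit) 7.41% did. For HLA-B these shares were 16.2% and, among 3142 genes, 10.6%. Ratios of this size were therefore not rare on these arrays.

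HLA-E, a nonclassical heavy chain that presents leader peptides of other class I chains to NKG2A receptors, had 2 spots with signals of 2184 and 2301 against 2230.9 and 2229.9. The spots of the arrays overlapped, and the log2 ratio was -0.04 with a measurement SD of 0.06.

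HLA-F, another nonclassical heavy chain, had 1 spot for the transcript NM_018950 with a signal of 1422 against 1132. The log2 ratio was 0.28, with a measurement SD of 0.09 and a scanner error of 0.20. Of all genes compared, 22.2% read higher by at least this much. The other HLA-F probe, for NM_001098478, had signals of 9.54 and 7.51 against 7.33 and 5.76 and was not well above background on either array, which leaves it without a fold change. HLA-F lay above HLA-B by 0.65 on the log2 scale (SD 0.11) and above HLA-C by 0.66 (SD 0.12), so the heavy chains did not read alike. Heavy-chain genes are close copies of each other and differ between people. The sequences of the probes were not analysed here, and how far a probe binds the transcripts of other heavy chains, or the alleles of SBC-3 cells, was not tested.

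**Figure D1:**
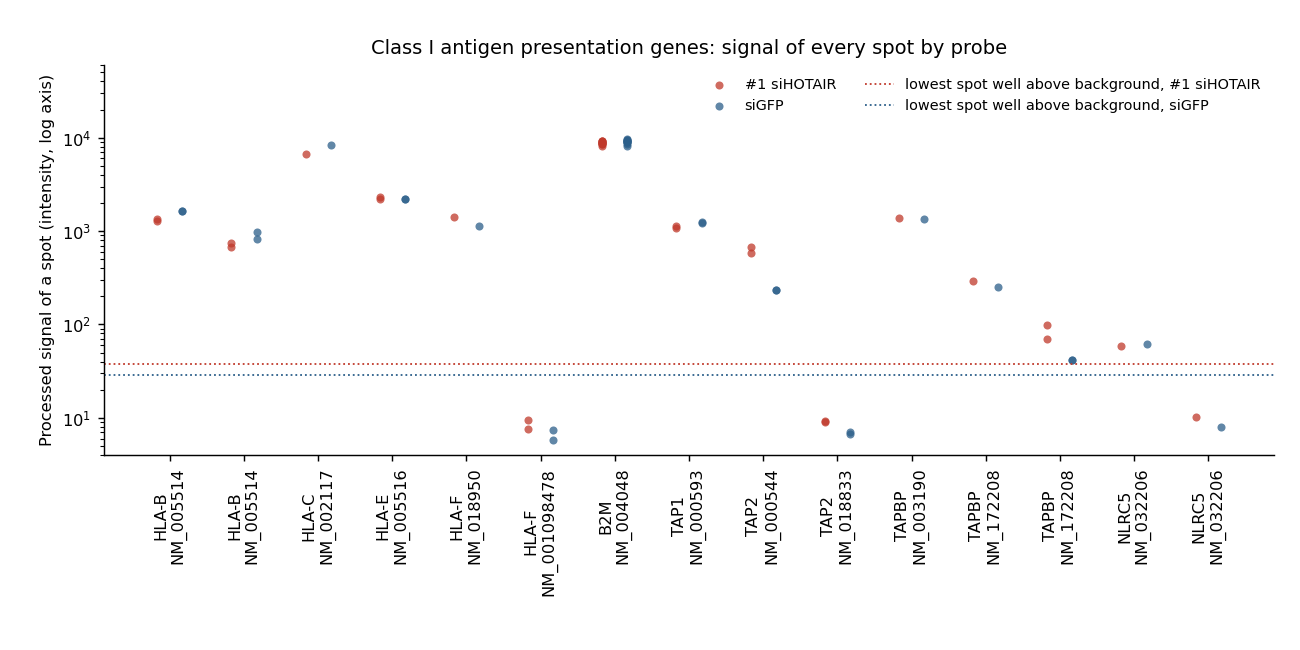
Processed signal of every spot (intensity, log axis) for the 15 probes of the 9 class I genes, labelled by gene and RefSeq transcript, in #1 siHOTAIR-transfected cells (red) and siGFP-transfected cells (blue); dotted lines give, for each array, the dimmest spot that was well above background. The TAP2 probe for NM_000544 reads 579 and 678 against 234 and 235, and 3 probes, 1 each of HLA-F, TAP2 and NLRC5, lie under both dotted lines.

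B2M, the light chain shared by all class I molecules, was read by 1 probe with 10 spots and had the smallest measurement SD of the members. The signals with #1 siHOTAIR ran from 8165 to 9326 with a median of 8853. With siGFP they ran from 8067 to 9684 with a median of 9066. The arrays overlapped almost fully, and the log2 ratio was -0.08 with a measurement SD of 0.02. Spike-in scaling turned it to 0.09, so its sign depends on the scaling. HLA-B lay 0.29 below B2M (SD 0.07) and HLA-C 0.30 below it (SD 0.08).

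TAP1 and TAP2, the partners that form the peptide transporter, gave opposite ratios. TAP1 had signals of 1086 and 1132 against 1247 and 1209, every #1 siHOTAIR spot below every siGFP spot, and a log2 ratio of -0.19 with a measurement SD of 0.07. The scanner error of each TAP1 spot was 0.20, about as large as this ratio. Spike-in scaling brought the TAP1 ratio to -0.02.

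The TAP2 probe for NM_000544 had signals of 579 and 678 against 234 and 235. Its log2 ratio was 1.37 with a measurement SD of 0.11, and its spots, in rows 49 and 173 of the array, gave 1.26 and 1.48. Of all genes compared, 1.68% read higher by at least this much, and 0.526% of the 3424 genes with a like mean signal did. TAP2 lay 1.56 above TAP1 on the log2 scale (SD 0.13). Among 4458 probes with 2 spots well above background on both arrays, a difference of at least 2-fold between the spots of a probe occurred in 18 with #1 siHOTAIR and in 12 with siGFP. The pair of TAP2 spots read alike on each array.

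The other TAP2 probe, for NM_018833, a transcript whose protein has a different end, had signals of 9.28 and 8.93 against 7.11 and 6.78 and was not well above background on either array. The increase of TAP2 was thus read from 1 of its 2 probes, and the other gave no measurement.

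TAPBP, the gene of tapasin, had 3 probes that disagreed. The brightest, for NM_003190 with 1 spot, read 1375 against 1338, a log2 ratio of -0.01 (measurement SD 0.09). One of the probes for NM_172208, with 1 spot, had 293 against 249.7 and a ratio of 0.19 (SD 0.16). The other had 2 spots, with 99.4 and 69.7 against 42.1 and 41.7, and a ratio of 0.94 (SD 0.26), the spots giving 1.19 and 0.70. It lay 0.95 above the brightest probe with an SD of 0.28 for that difference. Its signals were close to the lowest signals well above background, which were 37.3 with #1 siHOTAIR and 28.6 with siGFP. Without background correction its ratio was 0.32. TAPBP as a whole has therefore no single ratio here.

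NLRC5 was dim. One probe with 1 spot read 58.6 against 61.3, well above background on both arrays, for a log2 ratio of -0.11 with a measurement SD of 0.39. The other, with 10.3 against 7.89, was well above background on neither. A change of NLRC5 within 2 measurement SDs could not be told from measurement error at this signal.

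**Figure D2:**
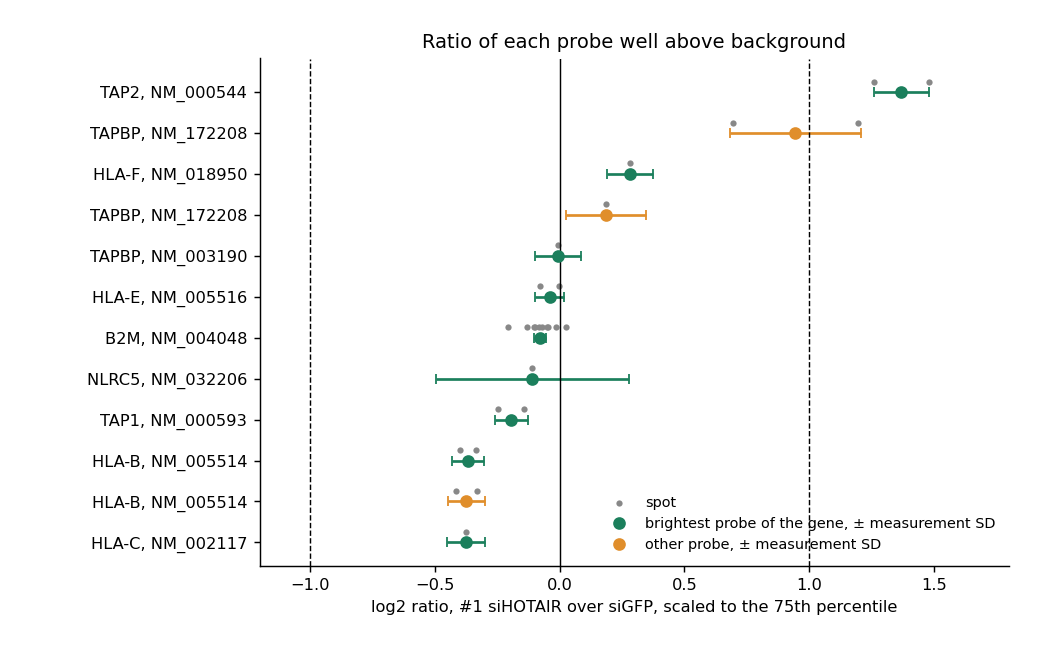
The log2 ratio of #1 siHOTAIR over siGFP for the 12 class I probes well above background, with error bars of 1 measurement SD taken from probes with 10 spots; grey points are single spots, green marks the brightest probe of each gene and orange the others, and dashed lines mark 2-fold. TAP2 at 1.37 is the only probe beyond 2-fold, 1 of the 2 spots of the dimmest TAPBP probe lies beyond it at 1.19, and both HLA-B probes and HLA-C lie together near -0.37.

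Ordered by the ratio of the brightest probe, the genes ran from TAP2 at 1.37 over HLA-F at 0.28, TAPBP at -0.01, HLA-E at -0.04, B2M at -0.08, NLRC5 at -0.11 and TAP1 at -0.19 to HLA-B at -0.37 and HLA-C at -0.38. TAP2 exceeded HLA-F by 1.09 (SD 0.14) and HLA-F exceeded TAPBP by 0.29 (SD 0.13). The neighbours from TAPBP down to HLA-C each differed by less than 2 measurement SDs.

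**Figure D3:**
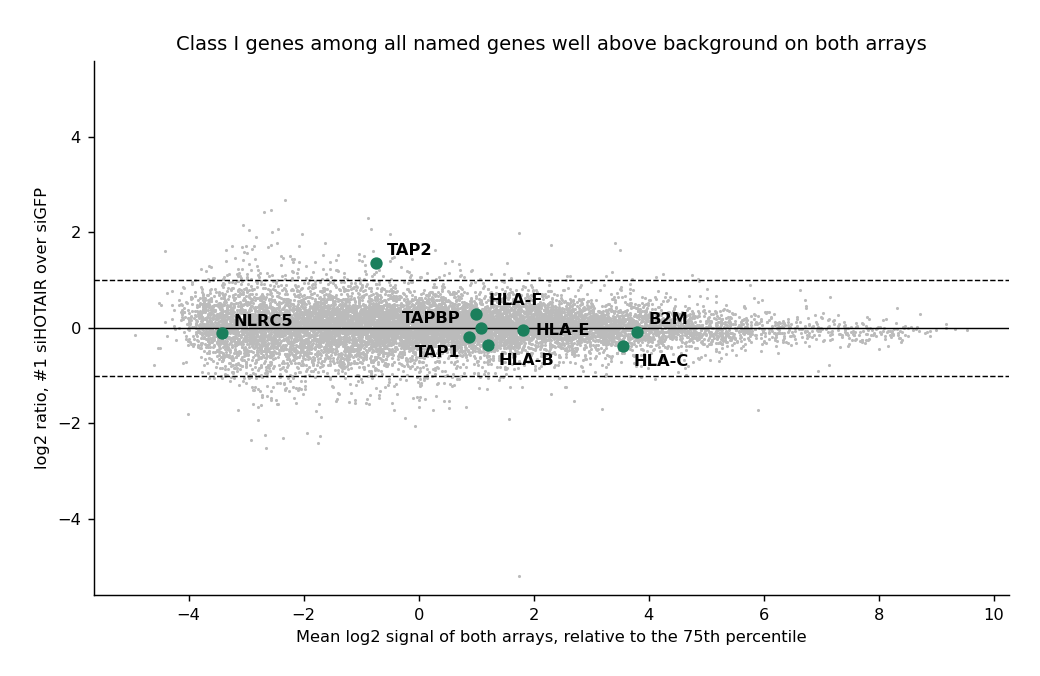
The log2 ratio of #1 siHOTAIR over siGFP (vertical axis) against the mean log2 signal of both arrays relative to the 75th percentile (horizontal axis) for the 12026 named genes well above background on both arrays (grey), with the 9 class I genes in green and dashed lines at 2-fold. TAP2 lies at the upper edge of the cloud, and the other 8 genes lie inside it.

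TAP2 lies in the class II part of the MHC on chromosome 6, next to HLA-DOB on one side and PSMB8, TAP1 and PSMB9 on the other. HLA-DOB, a class II chain, had a log2 ratio of 0.37 with a measurement SD of 0.28. PSMB9, an immunoproteasome subunit that shares its start region with TAP1, had a ratio of 0.00 (SD 0.08), and PSMB8 was well above background on neither array. Of the 107 compared genes from HLA-F to TAPBP along the chromosome, TAP2 was the 1 gene at least 2-fold higher, and 2 were at least 2-fold lower, 0.935% and 1.87%. The lower genes were POU5F1, a pluripotency factor, and HLA-DMB, a class II peptide editor that was well above background with siGFP alone. At the floor of the #1 siHOTAIR array HLA-DMB has no decrease that could be bounded, which leaves 1 lower gene, POU5F1, among the 100 genes well above background on both arrays. They were named after their values were seen. The median ratio of the 107 genes was -0.04.

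Peptide supply to the transporter was read from 11 genes of the immunoproteasome, its activators and the trimming enzymes, of which 10 were compared. None was at least 2-fold higher. The 1 gene past 2-fold lower, ERAP2, was so only with its dim signal at its own level, and none of the 9 genes well above background on both arrays was. The median log2 ratio was 0.23. ERAP1, which trims peptides to length in the endoplasmic reticulum, had signals of 611 and 657 against 314 and 319 and a ratio of 0.95 (SD 0.09). The other ERAP1 probe, with mean signals of 8.66 against 6.64, was well above background on neither array and gave no measurement. ERAP2, the partner of ERAP1, was well above background with siGFP only. Its mean signal was 13.1 against 60.4. With the dim signal raised to the floor of the #1 siHOTAIR array it was only 1.67-fold lower, which is not a strict bound. PSMB10, an immunoproteasome subunit, had a ratio of 0.44 (SD 0.05). All 9 chaperones of class I assembly were compared and none differed 2-fold, with a median of 0.10. They ran from BCAP31, an export receptor of the endoplasmic reticulum, at -0.24 to HSPA5, the general chaperone BiP, at 0.49.

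Transcription factors and polycomb subunits that act on class I genes showed no 2-fold difference in any of the 14 compared of 17, with a median of -0.09. RFX5, a factor that NLRC5 works with, had 2 probes with ratios of -0.16 (SD 0.07) and 0.23 (SD 0.07), so its direction depends on the probe. EZH2 was at -0.16 (SD 0.06) and SUZ12, another polycomb subunit, was at 0.50 (SD 0.03). CIITA, the class II transactivator, was well above background on neither array.

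Of the 34 interferon receptors and response genes, 21 were compared, with a median of 0.08, and none differed 2-fold. They ran from IFI44 at -0.52 (SD 0.34) to ISG15, a ubiquitin-like protein strongly induced by interferon, at 0.49 (SD 0.06). IFIT1, another response gene, was bright, with mean signals of 28606 against 26116 and a ratio of 0.09 (SD 0.05), whereas IFIT3 was at -0.52 (SD 0.11). MX1, OAS1, OAS3 and CXCL10, response genes as well, were well above background on neither array.

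The remaining class I and class I-like genes gave 8 compared of 16, with 1 higher and 0 lower and a median of -0.18. PROCR, a class I-like receptor of protein C, had 1603 and 1649 against 647 and 707 and was 2.33-fold higher. MICA and MICB, stress ligands of the NKG2D receptor that need neither peptide nor B2M, read lower on every probe. The MICA probes had ratios of -0.73 (SD 0.06) and -0.92 (SD 0.09), and the MICB probes -0.87 (SD 0.08) and -1.13 (SD 0.32). HLA-G, a nonclassical chain, was at -0.29 (SD 0.06). Class II genes, which lie in the same region, were mostly dim, with 6 of 12 compared and a median of 0.00.

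**Figure D4:**
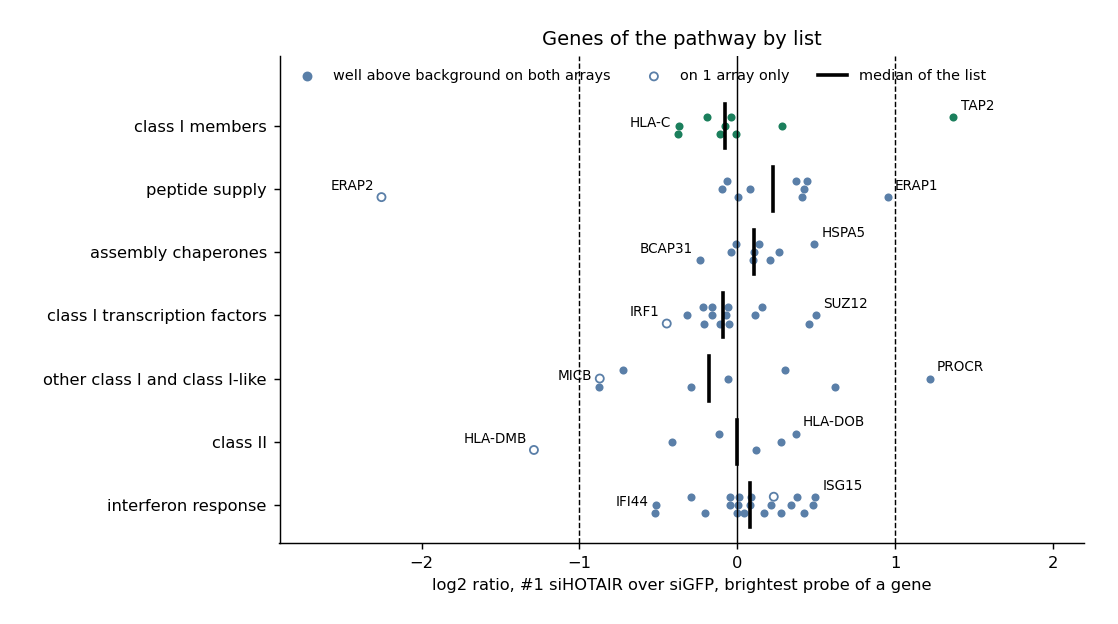
The log2 ratio of #1 siHOTAIR over siGFP for each compared gene of the class I genes and 6 further lists (rows; marker lists are not drawn), with filled points for genes well above background on both arrays, open points for those on 1 array only, black bars for the median of a list and dashed lines at 2-fold; the lowest and highest gene of each list are named. TAP2 and PROCR lie above 2-fold, and ERAP2 and HLA-DMB, measured on 1 array only, lie below it at the level of their dim signals.

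As checks on the arrays, HOTAIR read 108 against 244, a log2 ratio of -1.22 with a measurement SD of 0.25, and ACTB and GAPDH had ratios of -0.02 and 0.00 by their brightest probes. Of 12 markers of SCLC and epithelium, 4 stood well above background on both arrays and 3 on 1 array only, CHGA and NCAM1 with #1 siHOTAIR and EPCAM with siGFP. With dim signals at their own level these 3 genes were past 2-fold, at log2 ratios of 2.78, 1.78 and -1.49. With the dim signal raised to the floor, CHGA, a neuroendocrine granule protein, was 2.44-fold higher. This is not a strict bound, and NCAM1 and EPCAM kept no difference in their direction at the floor. NEUROD1, a neuroendocrine lineage factor, had a mean signal of 213 against 372, whereas INSM1, POU2F3, SYP and UCHL1 were not well above background on either array, so the neuroendocrine identity of the cells was read from few markers. Among 12 blood cell markers, 6 were well above background and none differed 2-fold. By their brightest probes they ran from CD14 at -0.17 to PTPRC at 0.75 (SD 0.34). Another PTPRC probe, well above background with siGFP only, read -0.83. Of 11 markers of fibroblasts and endothelium, 3 were well above background and none differed 2-fold. These ran from CDH5 at -0.05 to COL1A1 at 0.96 (SD 0.08).

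**Figure D5:**
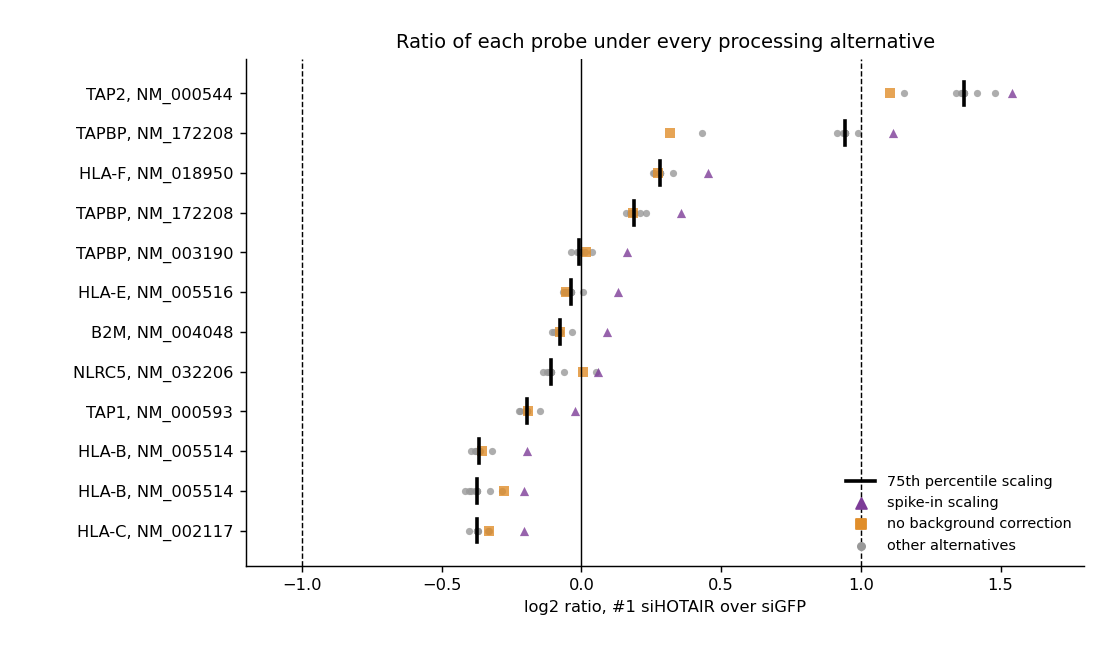
The log2 ratio of #1 siHOTAIR over siGFP for the 12 class I probes under 75th percentile scaling (black bars) and under each alternative way of processing (points), with spike-in scaling as triangles and the signal without background correction as squares. TAP2 stays above 1, which is 2-fold, and reaches 1.54, and HLA-B and HLA-C stay below 0 under every alternative shown, whereas B2M, HLA-E, NLRC5 and the brightest TAPBP probe cross 0.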

How the data were processed

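Total RNA of 1 siHOTAIR-transfected and 1 siGFP-transfected culture of SBC-3 cells was labelled with Cy3 and hybridized by the authors to 1 Agilent array each, and spots were extracted with Agilent Feature Extraction 10.10.1.1, per the file headers. The deposited processed signal is an intensity, background-subtracted and detrended within the array, and not normalized between arrays. The deposited series value table holds the background-subtracted intensity of the same spots (largest difference 0) and served as an alternative. Groups came from the sample titles.

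From there, log2 signals were set against the 75th percentile of the 58717 spots of an array that are not controls (650.3 for #1 siHOTAIR, 629.9 for siGFP). Outlier spots were left out, the spots of a probe averaged, and a probe compared if 50% or more of them were called well above background on either array (24117 of 42402 probes). A gene was read from its brightest compared probe. Accessions were matched without versions to RefSeq names of GRCh38.p14, which named 58.5% of the probes; the arrays' own header names another build, so coordinates are given for the RefSeq promoter windows alone, and the table otherwise served for names and the order of genes. Measurement SDs were interpolated between 6 signal levels of probes with 10 spots. With 1 array per condition no test was run, and the number of arrays limits the precision. Where only 1 array had a gene well above background, the dim signal was raised to the lowest signal well above background there (the floor). Some spots above a floor were not called well above background. A CIITA spot at 42.7 with #1 siHOTAIR and a spot of the class I-like gene AZGP1 at 36.6 with siGFP were among them. The fold at the floor is therefore not a strict lower bound.

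The named genes were every member with all its probes, the genes of the lists that changed 2-fold or lay at either end of a list, and HOTAIR, ACTB and GAPDH. Other list genes, named for their role, were chosen after their values were seen, and members, lists and alternatives were chosen with earlier results of these data known. Some genes of the lists are counted but not reported here by name. In simulated arrays of 42405 probes with measurement error only, each of 200 probes with a 4-fold change was recovered and 61 others reached 2-fold. The 200 were drawn from brighter probes only, so genes as dim as NLRC5 were not covered, and smaller changes were not simulated. Alternatives were 4 other scalings, 3 other signals, 2 filters, spot medians, spots outside rows 1 to 144 and outlier spots kept. Further ones were thresholds of 1.5-fold and 3-fold, the median probe of a gene and dim signals raised to the floor. Normexp (limma 3.58.1, R 4.3.3, offset 50) used pixel medians, as the files hold no spot means. Other steps used python 3.11.15 and numpy 2.4.6.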

Additional observations from a re-analysis of the deposited data

How the results depend on the processing

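TAP2 was the only one of the 9 genes at least 2-fold higher, and none was at least 2-fold lower, under every alternative except the threshold of 3-fold, at which 0 genes were higher. The TAP2 ratio was lowest without background correction, where it still exceeded 2-fold, and highest, at 1.54, with scaling to the spike-in RNA. It was 1.48 from its spot outside the first rows of the array (the row limit is given under the processing). The log2 ratios of HLA-B and HLA-C kept their sign under all 12 alternatives, from -0.41 to -0.20 and from -0.40 to -0.21, and HLA-F ran from 0.25 to 0.45. B2M kept its sign under 11 of 12, HLA-E under 10, NLRC5 under 9 and the brightest TAPBP probe under 8. Scaling to the spike-in RNA moved the median of the 9 genes to 0.0923, of peptide supply to 0.40, of chaperones to 0.27, of transcription factors to 0.0795, of the other class I and class I-like genes to -0.00582, of interferon genes to 0.25, of SCLC markers to 0.0745 and of stromal markers to 0.13. With every spot well above background on both arrays, the medians of peptide supply, class I-like genes and SCLC markers were 0.37, -0.0607 and -0.27. Without a filter, those of peptide supply, SCLC markers and stromal markers were 0.0794, 0.21 and 0.22. With spots outside the first rows only, those of peptide supply, chaperones and SCLC markers were 0.0478, 0.24 and -0.27. With the median of the probes of a gene, those of chaperones and SCLC markers were 0.26 and -0.36. The cause was not tested. No paired analysis was possible because each condition has 1 array and the result comes from no test. The distance of a signal from background limits NLRC5 and the dimmest TAPBP probe most.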
